A study of Mus musculus with 4 samples.

Results

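The Bcl2 family genes described here are 10 genes of the mitochondrial cell death pathway, found by symbol among the 25239 genes of the deposited count table. They are the BH3-only genes Pmaip1 (Noxa), Bbc3 (Puma), Bcl2l11 (Bim), Bmf and Bid, the effector genes Bax and Bak1, and the anti-apoptotic genes Bcl2, Bcl2l1 (Bcl-xL) and Mcl1. All 10 were found, and all 10 passed the filter on low counts that left 14610 genes for testing. The family was chosen from the anterior against central fold change and p-value of Pmaip1, which were already known, so the differences of the 10 genes in that comparison are given as a description and none is offered as a test.

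RNA was measured by sequencing in cells of the hindlimb bud of FVB mouse embryos at embryonic day 11.5. All embryos were labelled wild-type and carried the reporter transgene hsp68-hZRS(404G>A)-mCherry at the H11 locus, a construct that places mCherry, a red fluorescent protein, under an hsp68 promoter and a human copy of the ZRS limb enhancer bearing a base change. The groups are anterior mCherry+ cells and central mCherry- cells, dissected and then sorted, with 2 libraries of each. Position in the limb bud and reporter activity differ together between the groups and cannot be told apart. The number of embryos behind a library is not given in the sources used here, and nothing says that the replicates came from separate litters. The spread between these libraries may therefore be technical. The SDs below describe that spread for each gene. The SEs rest on the same libraries but come from a fit that also draws on the variation of other genes.

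As background, the Bcl2 family decides whether the outer mitochondrial membrane is permeabilised in a stressed cell. BH3-only proteins are the sensors: they bind and neutralise the anti-apoptotic members, and some of them also activate Bax and Bak directly. Active Bax and Bak form pores through which cytochrome c leaves the mitochondrion, after which Apaf1 and caspase 9 set off the caspase cascade. Noxa binds mainly Mcl1, whereas Bim and Puma bind all anti-apoptotic members. In the limb bud this pathway carries out the programmed cell death that removes cells at the margins and later between the digits.

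Library totals lay between 30080925 and 33257383 counts, and replicates of either population correlated at 0.987 (Pearson, log2 CPM across genes, which are not independent replicates). CPM is the count per 1000000 counts after TMM scaling, a trimmed-mean correction of the library totals. A gene is called where its adjusted p-value from edgeR's quasi-likelihood test, corrected by Benjamini-Hochberg over all tested genes, was under 0.05. Markers of limb mesenchyme were present in both populations (6 of 6 tested, summed level 2379 to 2430 CPM in anterior and 2231 to 2371 CPM in central libraries), with 2 of the 6 called higher (Prrx2, 3.75-fold, and Twist1, 1.77-fold) and 1 called lower (Pdgfra, 2.26-fold). Other cell types were unevenly represented. Erythroid markers summed to 3294 and 8400 CPM in anterior and to 5.97 and 9.48 CPM in central libraries, with 8 of 9 markers called higher and Hba-a1 listed at 0 in every library. Myogenic markers summed to 0.750 and 0.511 CPM in anterior and to 83.0 and 71.3 CPM in central libraries, with 5 of 5 called lower and Myog at 0 counts in both anterior libraries. Surface ectoderm markers (9.71 and 9.99 against 44.3 and 131 CPM, 6 of 7 called lower) and endothelial markers (4.74 and 7.47 against 20.7 and 29.1 CPM, 3 of 5 called lower) were also lower in anterior cells, while macrophage and white cell markers were at 19.9 and 14.7 against 7.79 and 7.29 CPM (3 of 7 called higher). Neural crest and Schwann precursor markers were at 6.12 and 5.52 against 24.0 and 19.6 CPM, with 2 of 3 called lower and Sox10 at 0 counts in both anterior libraries. Dissociation stress genes were at 519 and 489 against 753 and 564 CPM, with 1 of 8 called higher and 2 called lower. The part of these cells in the differences below was not tested. In bulk RNA, fewer cells of a type and less RNA per cell cannot be told apart.

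The family did not move as a block. Pmaip1 was far higher in anterior cells, Bmf was lower, Bax was slightly higher, and the remaining members differed by smaller amounts. Of the 10 genes, 3 had an edgeR adjusted p-value under 0.05, 2 of them higher and 1 lower in anterior cells, beside 22.9% of all tested genes in either direction, 10.7% higher and 12.3% lower. With library size alone or upper-quartile scaling the count was 2, 1 higher and 1 lower. Pmaip1 is in these counts through the choice of the family, so they are not separate support. The other members under 0.05 were Bax and Bmf, and without Pmaip1 the share called was close to that of all tested genes. Libraries of the populations did not overlap for 9 of the 10 genes, 5 with anterior above and 4 with anterior below, beside 63.5% of all tested genes, 30.8% above and 32.6% below. The median log2 fold change of the 10 genes (anterior minus central) was 0.02, and that of all tested genes was -0.01.

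**Figure D1:**
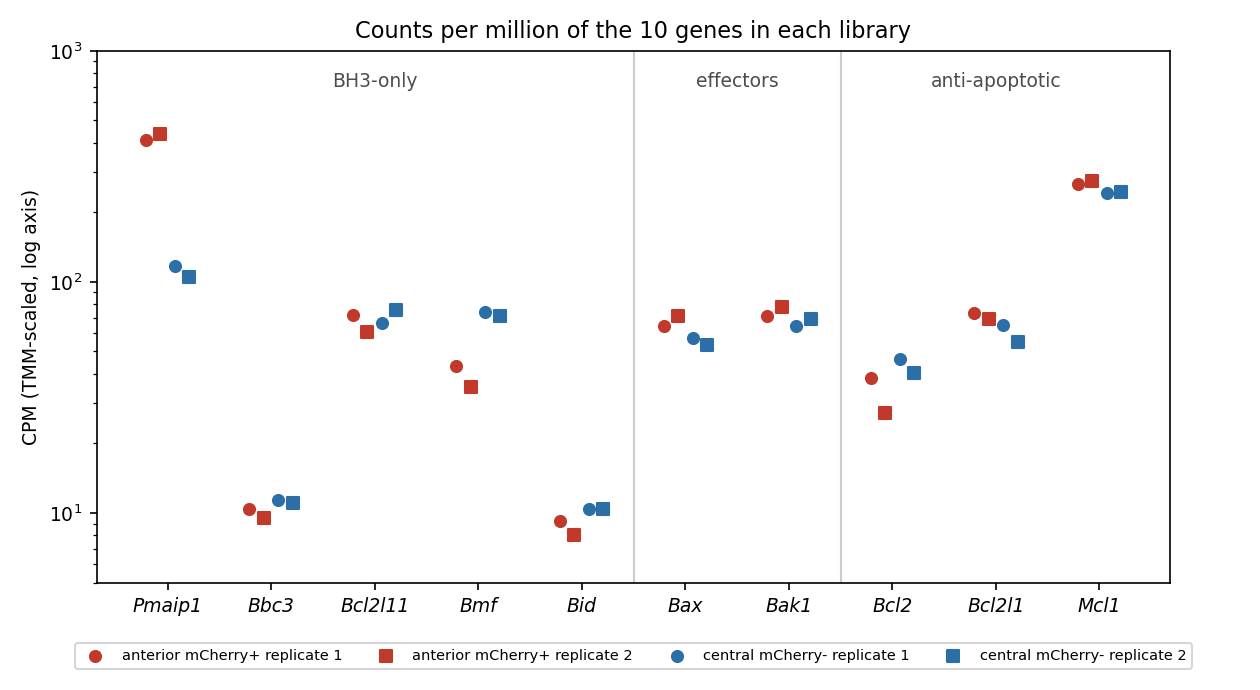
TMM-scaled CPM (log axis) of the 10 genes, with a point for each library, anterior mCherry+ in red and central mCherry- in blue, circles for replicate 1 and squares for replicate 2. The Pmaip1 libraries lie at 413 and 437 CPM in anterior and 117 and 105 CPM in central cells, the Bmf libraries separate the other way, and the rest lie close together.

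Pmaip1 encodes Noxa, a small BH3-only protein that neutralises Mcl1 and is known as a target of p53 and of stress signalling. The gene lies on chromosome 18, from 66458533 to 66465565 on the plus strand (GRCm38, GENCODE M21), and shares no exon with another annotated gene. Anterior libraries held 13761 and 12831 of its counts and central libraries 3608 and 3398, or 413 and 437 CPM against 117 and 105 CPM. Both anterior libraries were far above both central ones, and the replicates of a population lay close together. The group means were 425 ± 17.5 and 111 ± 8.61 CPM (SD, n = 2), which is 3.83-fold, or 1.94 ± 0.08 (SE) on the log2 scale. By size of rise Pmaip1 stood at rank 183 of the 14610 tested genes, and by p-value at rank 19. The family was chosen from this fold change and p-value, so the ranks restate that choice and are not separate support.

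Bmf encodes a BH3-only protein that is held by the dynein light chain and is released when a cell loses its anchorage. It is on chromosome 2, from 118528757 to 118549687 on the minus strand. Its counts were 1439 and 1032 in anterior and 2282 and 2304 in central libraries, or 43.1 and 35.2 CPM against 74.1 and 71.2 CPM. Both anterior libraries were below both central ones. The log2 fold change was -0.89 ± 0.11 (SE), with means of 39.2 ± 5.63 and 72.6 ± 2.07 CPM (SD, n = 2), so that Bmf was 1.85-fold lower in the cells where Pmaip1 was higher.

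The other BH3-only genes differed much less. Bcl2l11 encodes Bim, which binds every anti-apoptotic member and activates Bax and Bak. Its libraries overlapped, at 71.6 and 60.4 CPM in anterior and 66.3 and 75.4 CPM in central cells, with a log2 fold change of -0.10 ± 0.10 (SE). Bbc3 encodes Puma, a second classical p53 target of the family, and its level was low, at 10.4 and 9.51 CPM in anterior and 11.4 and 11.1 CPM in central libraries. The fitted difference of Bbc3 was -0.17 ± 0.16 (SE) on the log2 scale, about as large as its own error and opposite in sign to that of Pmaip1. Bid, which is cleaved by caspase 8 and links death receptors to mitochondria, was at 9.26 and 8.04 CPM in anterior and at 10.5 and 10.4 CPM in central libraries (log2 fold change -0.27 ± 0.17 SE). Exons of Bid share 628 bases, or 17.7% of their length, with exons of Bcl2l13 on the opposite strand, and the strandedness of the counting is not given in the sources used here, so the count of Bid is uncertain.

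Both effectors had anterior levels slightly above the central ones. Bax, on chromosome 7 from 45461697 to 45466898 on the minus strand, had 2150 and 2087 counts in anterior and 1767 and 1730 in central libraries, or 64.5 and 71.1 against 57.4 and 53.4 CPM. Its log2 fold change was 0.29 ± 0.09 (SE), or 1.22-fold, and both anterior libraries were above both central ones. Exons of Bax share 192 bases, or 12.2% of their length, with the gene Gm45808 on the same strand. Gm45808 is absent from the deposited counts, which keep genes at 0, so whether counting took it into account is not known. The Bax call was lost with library size alone, with upper-quartile scaling and when anterior replicate 2 or central replicate 2 was left out (log2 fold changes of 0.26, 0.25, 0.22 and 0.24). Bak1 was at 71.2 and 77.6 CPM in anterior and 64.8 and 69.1 CPM in central libraries, with a log2 fold change of 0.15 ± 0.08 (SE). Of the exons of Bak1, 25.5% of the length lies opposite exons of Ggnbp1, which itself had only 56 to 119 counts in any library.

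Promoter sequences are shown for Bax and Bmf, the other members with an adjusted p-value under 0.05. They are RefSeq windows of 300 bases on GRCm38.p6, written 5′ to 3′ on the strand of the gene, with matches to the p53 half-site and to the E-box CACGTG, the letters bound by Myc family and other helix-loop-helix factors, in capitals. Both strands were searched, and GTAAACA, the core letters of FoxO binding, was searched as well.
Bax, chr7:45466849-45467148, minus strand: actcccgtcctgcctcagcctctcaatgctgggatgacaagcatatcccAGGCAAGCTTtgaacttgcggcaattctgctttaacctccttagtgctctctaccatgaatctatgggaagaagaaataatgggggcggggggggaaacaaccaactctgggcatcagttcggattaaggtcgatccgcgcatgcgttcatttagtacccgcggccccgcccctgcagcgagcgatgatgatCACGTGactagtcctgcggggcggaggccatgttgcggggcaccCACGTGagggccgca
Bmf, chr2:118544538-118544837, minus strand: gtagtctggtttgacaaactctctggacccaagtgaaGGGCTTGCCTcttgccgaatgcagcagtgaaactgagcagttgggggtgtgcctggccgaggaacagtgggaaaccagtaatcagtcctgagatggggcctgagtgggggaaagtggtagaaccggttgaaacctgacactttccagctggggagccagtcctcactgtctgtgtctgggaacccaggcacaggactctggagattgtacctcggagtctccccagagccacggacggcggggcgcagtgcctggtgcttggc
The Bax window holds CACGTG at bases 242 to 247 and 286 to 291, and a p53 half-site at bases 50 to 59, counted from the 5′ end of the window. The Bmf window holds a p53 half-site at bases 38 to 47, and it is 1 of 3 windows listed for Bmf, of which the others hold none of the 3 motifs. The window shown lies inside the annotated gene. The window that spans the 5′ end of the annotated gene, chr2:118549637-118549936, is among those without a match. Of 32851 windows of that length over all genes, 7.15% hold CACGTG, 8.36% hold a p53 half-site and 3.65% hold GTAAACA. Pmaip1 has no entry among these windows, so its promoter was not searched. Among the 16 windows of the 9 members with an entry, CACGTG also occurs in Bbc3, and GTAAACA occurs in Bbc3 and Bcl2l11. These matches describe letters only, and no binding was measured.

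The anti-apoptotic genes were split in direction, each by a small amount. Mcl1, whose short-lived protein is the main partner of Noxa, was at 265 and 274 CPM in anterior and 243 and 245 CPM in central libraries. Its log2 fold change was 0.14 ± 0.06 (SE), or 1.10-fold, against the 3.83-fold difference of Pmaip1. Bcl2l1, which encodes Bcl-xL and supports the survival of maturing red cells among others, was at 73.4 and 69.1 CPM in anterior and 65.3 and 54.9 CPM in central libraries (log2 fold change 0.24 ± 0.10 SE). Without central replicate 1 the log2 fold change of Bcl2l1 was 0.38 and the gene was called.

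Bcl2, the founding member of the family, was lower in anterior cells, at 38.3 and 27.2 CPM against 46.2 and 40.5 CPM. The populations did not overlap, but the anterior replicates differed by 0.49 on the log2 scale, more than the log2 fold change of -0.40 ± 0.15 (SE). Bcl2 did not have an adjusted p-value under 0.05 with the filter on low counts, no block and all 4 libraries. It was called with replicate number as a block (log2 fold change -0.42), without a filter on low counts (-0.40), without anterior replicate 1 (-0.67) and without central replicate 2 (-0.49), so its call depends on the block, the filter and on which libraries are included. An antisense transcript, D630008O14Rik, shares 6.09% of the exon length of Bcl2 and is likewise absent from the deposited counts.

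**Figure D2:**
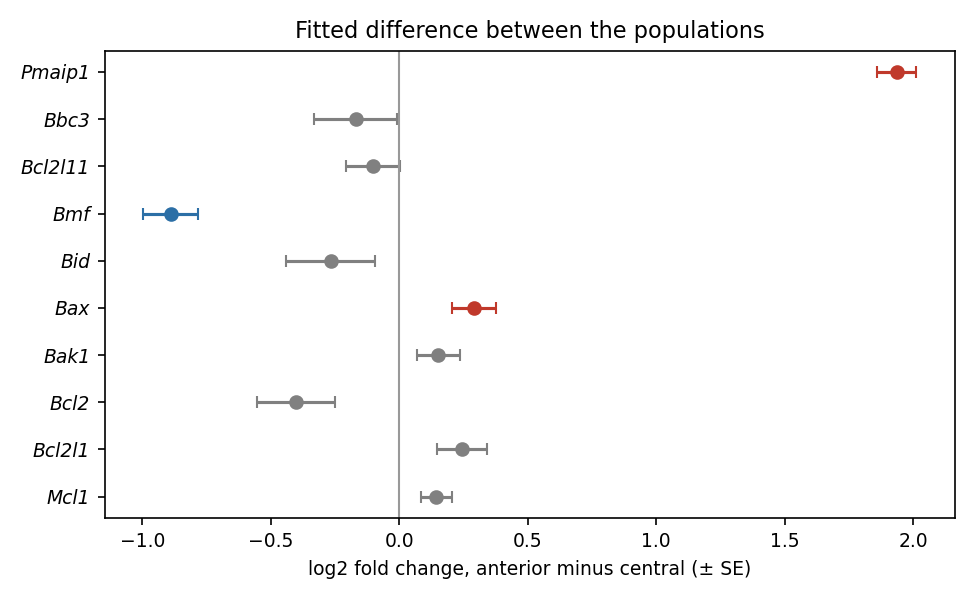
Fitted log2 fold change, anterior minus central, of each of the 10 genes with its standard error as a horizontal bar. Red and blue points have an edgeR adjusted p-value under 0.05 and grey points do not. Pmaip1 lies at 1.94 and Bmf at -0.89, and the other 8 lie between -0.40 and 0.29.

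Replicates set the scale for these differences. The log2 difference between replicates 2 and 1 was 0.08 in anterior and -0.16 in central cells for Pmaip1, and -0.29 and -0.06 for Bmf. For Bax it was 0.14 and -0.10, and for Mcl1 0.05 and 0.01. Over all tested genes the median absolute replicate difference was 0.12 in anterior and 0.15 in central cells. The differences of Pmaip1 and Bmf between populations were larger than either of their replicate differences, as was that of Bax by a narrower margin. The same held for the smaller differences of Mcl1 (0.14), Bak1 (0.15), Bbc3 (-0.17) and Bid (-0.27), so it does not set the called genes apart. For Bcl2 the anterior replicates (-0.49) and for Bcl2l1 the central replicates (-0.25) differed by more than the populations did. The difference of Bcl2l11 was smaller than both of its replicate differences of -0.24 and 0.18. Because the family was chosen from the fold change and p-value of Pmaip1, the margin of Pmaip1 was largely set by that choice. It is given as a description only.

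Levels of different genes were compared per kilobase of exon, using the union of annotated exons in GENCODE M21. In central cells Mcl1 had the highest level per length at 71.4 ± 0.369 CPM per kilobase (SD, n = 2), followed by Pmaip1 at 40.7 ± 3.15, Bax at 35.2 ± 1.76 and Bak1 at 27.8 ± 1.27. In anterior cells Pmaip1 came first at 156 ± 6.42 CPM per kilobase, ahead of Mcl1 at 78.8 ± 2.0, Bax at 43.0 ± 3.0 and Bak1 at 30.9 ± 1.88. With the longest transcript in place of the exon union, Bax stood above Pmaip1 in central cells (50.4 against 40.7 CPM per kilobase), and Pmaip1 stayed first in anterior cells at 156 CPM per kilobase.

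The other 6 genes were lower per length. In anterior cells Bcl2l1 was at 15.5 ± 0.658 CPM per kilobase of exon, Bcl2l11 at 8.22 ± 0.980, Bmf at 7.45 ± 1.07, Bbc3 at 4.69 ± 0.307, Bcl2 at 3.57 ± 0.854 and Bid at 2.44 ± 0.243 (SD, n = 2). The ranges of Bcl2l11 and Bmf overlapped there, so those neighbours were not separated. In central cells Bmf was at 13.8 ± 0.393 and Bcl2l1 at 13.1 ± 1.60 CPM per kilobase, with overlapping libraries, and Bcl2l11 (8.82 ± 0.799), Bbc3 (5.29 ± 0.0913), Bcl2 (4.73 ± 0.436) and Bid (2.93 ± 0.0151) followed. By mean level Bmf stood at rank 5 of the 10 genes in central cells with the exon union and at rank 6 with the longest transcript, and at rank 7 in anterior cells with either length.

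Summed per length, most of the difference between the populations lay in Pmaip1. The family was chosen from the fold change of Pmaip1, so its share and each ratio that includes it were largely set by that choice. They are given as a description only. It made up 43.9% and 44.9% of the summed level of the 10 genes in anterior libraries and 18.9% and 17.5% in central libraries. The 5 BH3-only genes together were at 1.80 and 1.84 times the summed level of the 3 anti-apoptotic genes in anterior libraries, and at 0.814 and 0.790 times in central libraries. Without Pmaip1 that ratio was lower in anterior than in central libraries, at 0.253 and 0.213 against 0.339 and 0.353. The ratio of Pmaip1 to Mcl1 per length was 1.95 and 2.0 in anterior and 0.603 and 0.536 in central libraries. The ratio of Bax and Bak1 together to the anti-apoptotic genes moved less, at 0.722 and 0.787 against 0.70 and 0.711. These are RNA levels, and protein was not measured.

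**Figure D3:**
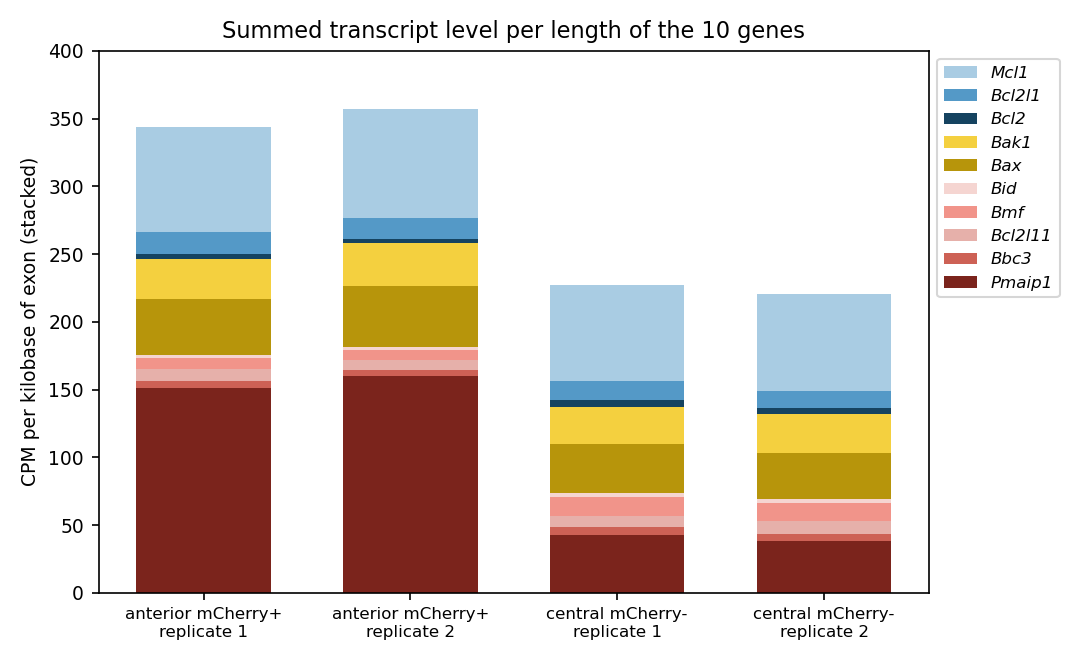
Stacked TMM-scaled CPM per kilobase of annotated exon for the 10 genes in each library, with BH3-only genes in reds, effectors in yellows and anti-apoptotic genes in blues. The totals are 344 and 357 in anterior and 227 and 220 in central libraries. The Pmaip1 segment is the part that differs most, which the choice of the family from Pmaip1 largely set.

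The remaining family members were taken from lists outside the 10 genes. Of the other BH3-only genes, 3 of 5 were tested and 0 were called by edgeR's quasi-likelihood test, DESeq2 or limma-voom. Among them 1 had an unadjusted edgeR p-value under 0.05. Over all tested genes edgeR called 22.9%, so 0 calls in lists this short say little. Bad, whose protein is held inactive by survival signalling, was at 12.3 ± 1.39 and 13.6 ± 2.52 CPM (SD, n = 2), Bnip3, a hypoxia-induced mitochondrial protein, was at 53.7 ± 1.21 and 45.2 ± 2.02 CPM (edgeR adjusted p = 0.0651), and Bik and Hrk had at most 10 counts in any library. Of the other multidomain genes, 5 of 10 were tested and 0 were called by edgeR, DESeq2 or limma-voom, beside the same 22.9%. Among them 1 had an unadjusted edgeR p-value under 0.05. Bok, an effector related to Bax, was at 22.6 ± 2.49 and 18.0 ± 0.165 CPM (edgeR adjusted p = 0.0996), and Bcl2l2 (Bcl-w) was at 21.7 ± 1.73 and 20.2 ± 0.296 CPM. The near-identical Bcl2a1a, Bcl2a1b and Bcl2a1d, among which reads can be shared, had at most 2 counts in any library.

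Of the 17 genes of the apoptosome, caspases and inhibitors of apoptosis, which act downstream of the mitochondrion, 17 were tested and 1 was called, beside 22.9% of all tested genes, with a median log2 fold change of 0.08. The called gene was Birc5 (survivin), an inhibitor of apoptosis family member that also serves in mitosis, at 120 ± 4.21 against 100.2 ± 9.13 CPM (edgeR adjusted p = 0.0462). That call was lost with library size alone, with upper-quartile scaling, with a mean count of at least 50, and without anterior replicate 1, anterior replicate 2 or central replicate 2 (edgeR adjusted p = 0.0958, 0.235 and 0.112 for the last 3). With library size alone, upper-quartile scaling or a mean count of at least 50, the list had 0 genes called higher and 1 lower. That gene was Apaf1, the scaffold of the apoptosome, which was at 77.8 ± 0.666 and 91.7 ± 6.37 CPM (edgeR adjusted p = 0.0587, and 0.0395, 0.0318 and 0.0467 under those 3 settings). Apaf1 was also called lower without central replicate 1 (edgeR adjusted p = 0.0151). Cycs, which encodes cytochrome c, was at 87.8 ± 3.20 and 77.8 ± 1.98 CPM (edgeR adjusted p = 0.126). The initiator gene Casp9 was not called (36.2 ± 0.595 and 32.9 ± 2.34 CPM). In the death receptor list 7 of 10 genes were tested and 0 were called by edgeR, DESeq2 or limma-voom, with 0 at an unadjusted edgeR p-value under 0.05, among them Casp8 at 9.47 ± 1.49 and 10.7 ± 1.68 CPM, and Fas had 4 counts in each anterior and 8 in each central library.

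Genes of the p53 pathway were called in both directions. Of 20 listed genes, 20 were tested, 3 were called higher and 7 lower in anterior cells, beside 10.7% higher and 12.3% lower among all tested genes. The median log2 fold change of the list was -0.08, and that of all tested genes was -0.01. Trp53 itself was higher, at 288 ± 0.676 against 233 ± 10.3 CPM (edgeR adjusted p = 0.00857, log2 fold change 0.31 ± 0.06 SE), and without anterior replicate 1 or 2 the edgeR adjusted p-values were 0.0616 and 0.0649. Mdm2, a classical p53 target and the main p53 antagonist, was at 88.9 ± 0.728 and 87.2 ± 0.271 CPM (edgeR adjusted p = 0.809, log2 fold change 0.03 ± 0.07 SE), with a fitted difference below 0 under library size alone and upper-quartile scaling. Cdkn1a, the cell cycle inhibitor p21 and another classical target, had 62 and 40 counts in anterior and 474 and 721 in central libraries, and fell by 3.54 ± 0.26 (log2, SE), with an edgeR adjusted p of 3.39e-05.

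Other listed p53 targets went either way, and 10 of the 20 listed genes were not called. Any part of p53 in the difference of Pmaip1 was not tested. Plk2 was at 19.5 ± 5.61 against 56.5 ± 11.7 CPM (edgeR adjusted p = 0.000863, log2 fold change -1.53). Perp, a desmosomal gene of epithelia, had 10 and 0 counts in anterior and 111 and 470 in central libraries (edgeR adjusted p = 0.00263, not called with limma-voom at 0.0675, range over the alternatives 4.2e-08 to 0.0675). The surface ectoderm markers moved with it, as given above. Btg2, Trp53inp1, Phlda3 and Trp73 were the other genes called lower, named here to complete the count. Trp73 was near the floor, with 2 and 2 counts in anterior and 10 and 50 in central libraries, and like Perp it was higher in central replicate 2. With limma-voom 8 genes of the list were called, 3 higher and 5 lower. Over all alternatives that kept all 4 libraries the count was 8 to 10. Aen (edgeR adjusted p = 0.00482, log2 fold change 0.54), a p53-induced nuclease, and Gtse1 (0.55, edgeR adjusted p = 0.00156), a G2 phase gene, were called higher. Ccng1 was at 32.0 ± 0.893 and 33.2 ± 3.90 CPM and was not called.

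Of 12 other regulators of BH3-only genes, 11 were tested, 4 were called higher and 2 lower, beside 10.7% higher and 12.3% lower among all tested genes, with a median log2 fold change of 0.13. Mycn, a growth-promoting Myc family gene, was at 199 ± 3.12 against 89.4 ± 1.04 CPM (edgeR adjusted p = 7.63e-06, log2 fold change 1.15 ± 0.06 SE), whereas Myc was at 8.32 ± 1.84 against 29.6 ± 0.0322 CPM (edgeR adjusted p = 9.69e-05, log2 fold change -1.83 ± 0.16 SE). Trib3, a pseudokinase gene induced by the integrated stress response, was at 3.63 ± 1.23 against 0.652 ± 0.180 CPM (edgeR adjusted p = 0.00422, log2 fold change 2.47 ± 0.43 SE). Its upstream factor Atf4, named to complete the count, was called higher by 0.23 on the log2 scale (edgeR adjusted p = 0.0323). E2f1 was called higher by 0.29. Among the FoxO factors, which are known to drive Bcl2l11 and Bbc3, Foxo4 was lower (edgeR adjusted p = 0.00707, log2 fold change -0.35, with p at 0.0508 and 0.0543 when anterior replicate 1 or 2 was left out) and Foxo1 and Foxo3 were not called, at 36.5 ± 2.25 and 32.9 ± 4.5 CPM and at 34.0 ± 0.614 and 31.0 ± 0.699 CPM. The E2f1 call was lost with library size alone and upper-quartile scaling (edgeR adjusted p = 0.0551 and 0.0502), and without anterior replicate 1, anterior replicate 2 or central replicate 1 (edgeR adjusted p = 0.187, 0.0713 and 0.0568). With library size alone or upper-quartile scaling 2 genes of this list were called higher and 2 lower. The genes still called higher were Mycn and Trib3, so the Atf4 call was lost there as well.

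Of 15 partners and turnover factors of Bcl2 family proteins, 15 were tested and 1 was called. That gene was Bag3, a co-chaperone that binds Bcl2, at 44.6 ± 3.34 against 32.0 ± 3.43 CPM, called higher (edgeR adjusted p = 0.0137, log2 fold change 0.48, with p at 0.0730 when anterior replicate 2 was left out). Vdac2, the mitochondrial channel that retains Bak, was at 230.3 ± 2.13 and 205 ± 3.47 CPM and was not called (edgeR adjusted p = 0.0774). Over all these lists 78 of 89 genes were tested, with 9 called higher and 9 lower, beside the 22.9% called among all tested genes. The split was 6 higher and 10 lower with library size alone or upper-quartile scaling, and 11 genes were called without anterior replicate 1 and 11 without anterior replicate 2.

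**Figure D4:**
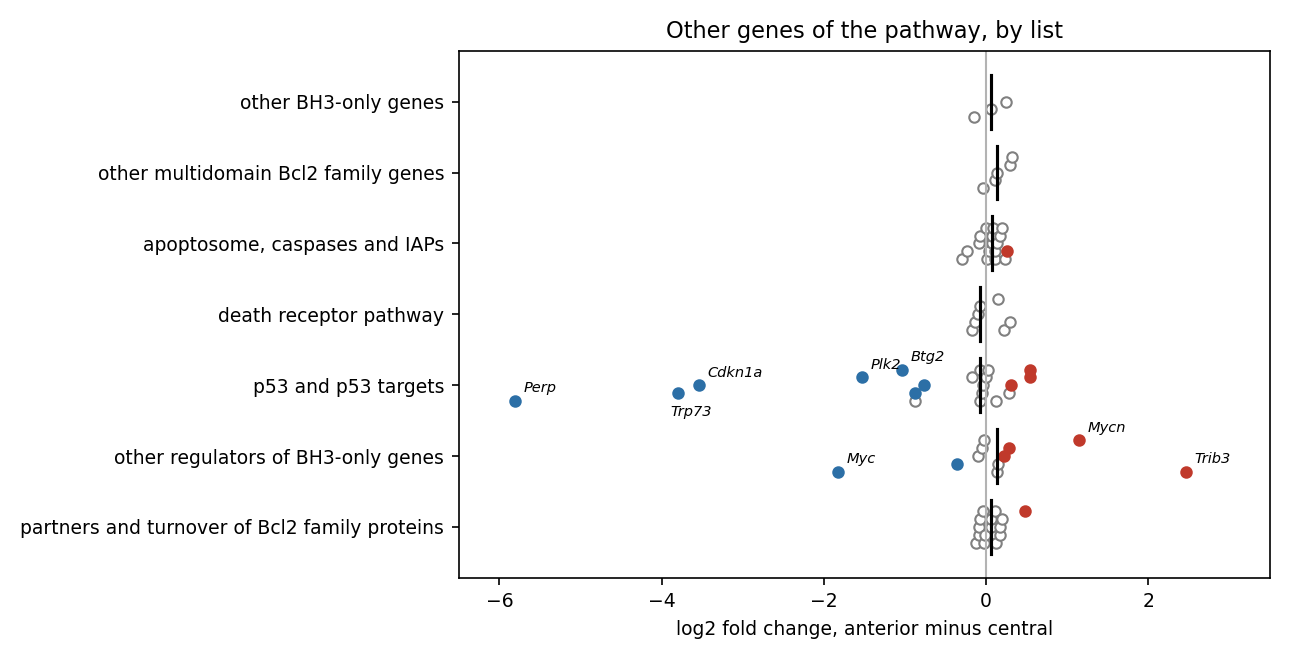
Log2 fold change, anterior minus central, of the 78 tested genes of the pathway lists, with a point per gene, filled where the edgeR adjusted p-value was under 0.05 (red higher, blue lower in anterior) and open otherwise, and a black bar at the median of each list. Most points lie near 0, and those beyond 1 in either direction are named and belong to the p53 list and the list of other regulators.

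The genes whose profile over the 4 libraries was nearest to that of Pmaip1, by root mean square distance of log2 CPM centred on each gene's mean, were Dync1i1 (0.0457), Mmp25 (0.0484) and Mtss1 (0.0492). Dync1i1, a dynein intermediate chain gene, was at 7.47 and 7.47 CPM in anterior and 2.08 and 1.73 CPM in central libraries. Mmp25, which encodes a membrane-anchored matrix metalloproteinase, was at 3.24 and 3.58 against 0.909 and 0.741 CPM. Mtss1, a regulator of the actin cytoskeleton at membranes, was at 171 and 172 against 50.7 and 43.6 CPM. None of the 3 is in the lists above, and with 4 libraries in 2 groups such likeness is mainly a like difference between the populations.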

How the data were processed

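The members and gene lists were chosen with earlier results of these data known. The authors deposited whole-number read counts per gene symbol, not normalized. The submitters' processing notes name STAR 2.7.9a, HTSeq, DESeq2 (3.16) and mm10, with no role or order; the annotation and strandedness are not given in the sources used here. Even numbers made up 72.8% to 75.6% of counts between 1 and 10. A pattern of this kind arises when both mates of a pair are counted, so a fit on halved counts was run.

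Counts were fitted with edgeR 4.0.16 in R 4.3.3 (filterByExpr, TMM, quasi-likelihood F test, Benjamini-Hochberg adjustment over 14610 genes, threshold 0.05, 2 residual degrees of freedom), after testing on simulated data. In 5 simulated draws with 200 of 14392 genes changed in each, 8.12% of called genes were false on average, above the threshold. Of the 2-fold changes 70.4% were recovered. In the data 22.9% of tested genes were called, a larger share than was changed in the draws. The false share of the draws therefore need not hold for the data. Calls close to the threshold are taken as less secure. "Called" means an adjusted p-value under that threshold. The SE is the log2 fold change divided by the square root of F. Named genes were the 10 members, 19 fixed pathway genes (a few of these are not reported here), and up to 3 called genes per direction and list with a mean CPM of at least 1. Alternatives were other scalings, filters and tests (DESeq2 1.42.0, limma-voom 3.58.1), halved counts, removal of erythroid genes, the block and leaving out each library. Lengths and coordinates are from GENCODE M21 (GRCm38). A total of 0 per-sample columns were unmatched. No molecular identifiers are named, so counts need not be independent molecules.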

Additional observations from a re-analysis of the deposited data

How the results depend on the processing

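Of 38 single genes, 31 kept their sign and call in every alternative that kept all 4 libraries, Pmaip1 and Bmf among them. The log2 fold change of Pmaip1 ranged from 1.86 to 2.02 and that of Bmf from -1.04 to -0.75 over all 14 alternatives, left-out libraries included. The Bax call was lost with library size alone (0.26) and upper-quartile factors (0.25). Bcl2 was called without a filter (-0.40) and with the replicate block (-0.42). The block changed no other call of the 38 genes and moved the count of called genes from 3351 to 3586. Same-numbered libraries of the 2 populations deviated together only weakly (Pearson r 0.0463 across genes), and nothing in the labels pairs them. At a threshold of 0.01, 1690 genes were called, a stricter criterion by construction.

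With each library left out in turn, with the lone library assumed to vary like the other group, 2009 to 3697 genes were called over all genes and 11 to 19 over the pathway lists. The ranges by list were 0 to 2 for apoptosome, caspases and inhibitors, 3 to 6 for other regulators, 0 to 2 for partners and turnover, and 0 to 1 for other multidomain genes. The 2009 genes were without anterior replicate 2, and the lowest values for all pathway lists and other regulators were reached without anterior replicate 1 and equally without anterior replicate 2. The log2 fold change ranged from 0.22 to 0.36 for Bax, -0.67 to -0.17 for Bcl2, 0.13 to 0.38 for Bcl2l1 and -0.226 to 0.0202 for Bcl2l11. Signs near 0 also changed for Bad (-0.321 to 0.0588), Ccng1 (-0.167 to 0.0731) and the medians of the other BH3-only (-0.0945 to 0.0780) and death receptor lists (-0.0645 to 0.0528). Among settings with all libraries, the sign changed for Mdm2 (-0.0019 with library size alone, -0.0084 with upper-quartile factors), the median of all pathway lists (-0.0032, upper-quartile factors) and that of the other BH3-only genes (-0.14, no filter). The cause was not tested. Bax, Bcl2 and Bcl2l1 were thus on either side of the threshold among the alternatives, with 2 libraries per group.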
